A study of Gallus gallus with 6 samples.

Results

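The extracellular matrix of the liver is built from collagens, laminins and glycoproteins that lie beside the sinusoids, around vessels and bile ducts and in the capsule. Stellate cells and portal fibroblasts make most of it, endothelial cells add basement membrane components, and hepatocytes secrete soluble fibronectin. Integrins are receptors of an alpha and a beta chain that hold cells to this matrix, metalloproteinases (MMPs) cut it, and tissue inhibitors of metalloproteinases (TIMPs) block those enzymes. Genes of these families were described here in chicken liver, family by family and bird by bird. They were the rows of the expression table whose gene name begins with COL and a digit, LAMA, LAMB, LAMC, ITGA, ITGB, FBLN, FBN, NID, HSPG2, SPARC, TIMP, MMP or LOX, or is FN1, DCN or LUM. This gave 103 of the 14481 genes of the table.

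Liver RNA of 3 ALV-J-resistant chickens was compared with that of 3 ALV-J-susceptible chickens, ALV-J being subgroup J of avian leukosis virus, a chicken retrovirus. The labels set the groups apart only by that trait. Breed, age, sex and exposure to the virus are not given in the sources used here, and each library carries the number of its own bird. Levels are the deposited FPKM, in which fragments are divided by transcript length and by depth, so that genes can be set side by side.

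Of the 103 genes, 33 were listed at 0 in all 6 birds, 14 were above 0 in at least 1 bird but averaged under 0.5 FPKM, and 56 averaged 0.5 FPKM or more and were tested. The libraries held between 3831108 and 6623023 fragments on the genes of the table. The number of the 103 genes above 0 was 60, 55 and 50 in resistant 1 to 3, against 49, 39 and 54 in susceptible 1 to 3. Among all genes with a mean of 5 to 10 FPKM, the share listed at 0 lay between 3.11% and 15.5% in resistant birds and between 12.3% and 26.4% in susceptible birds, and was highest in susceptible 2. Serum albumin (ALB), which every hepatocyte makes, was itself listed at 0 in resistant 2 and susceptible 3, so a 0 is given only as listed at 0 and is not read as absence. The other hepatocyte markers examined were abundant in all 6 birds, and transferrin (TF) had 3122 to 3568 FPKM in resistant birds and 3317 to 4404 FPKM in susceptible birds. Resistant 3 and susceptible 3 had no fragment on the 9 genes of chromosome W, the female-specific chromosome of birds, and the other 4 birds had fragments on 2 to 5 of them. In liver tissue, fewer cells of a type and less RNA per cell cannot be told apart.

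Matrix, integrin and protease genes did not pass the test between the 2 groups of birds. With limma on log2(FPKM + 1), 0 of the 56 genes tested had a Benjamini-Hochberg adjusted p under 0.05, where 0% of all 9626 genes tested had one. The lowest adjusted p among the 56 was 0.984. At an unadjusted p under 0.05, 0 of the 56 were counted, against 3.87% of all genes tested (2.4% higher and 1.48% lower in resistant birds), and no second tool was run on single genes. The smallest unadjusted p, 0.053, belonged to FN1, fibronectin, with lower values in resistant birds. All 3 resistant birds lay above all 3 susceptible birds for 2 genes, MMP15 and MMP2, and below them for 0 genes. These 2 are 3.57% of the 56, whereas 8.41% of all genes tested had no overlap in one direction or the other (4.44% higher and 3.98% lower in resistant birds). The median log2 fold change, resistant over susceptible, was 0.18 over the 56 and 0.05 over all genes tested, and over the 56 it was -0.05 under quantile normalization, -0.0069 without resistant 3 and -0.0037 without susceptible 2. Of the 56, 33 were above 0 and 23 below, so that 58.9% were above 0, against 52.8% of all genes tested. That last share is the background for the counts by direction given below for families and lists. The p-values and intervals rest on each gene's spread between birds, which limma draws toward that of genes of like level. A gene with close values within groups, such as MMP2, can thus have a wide interval. With that spread, the intervals below show how large a difference the data still allow.

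**Figure D1:**
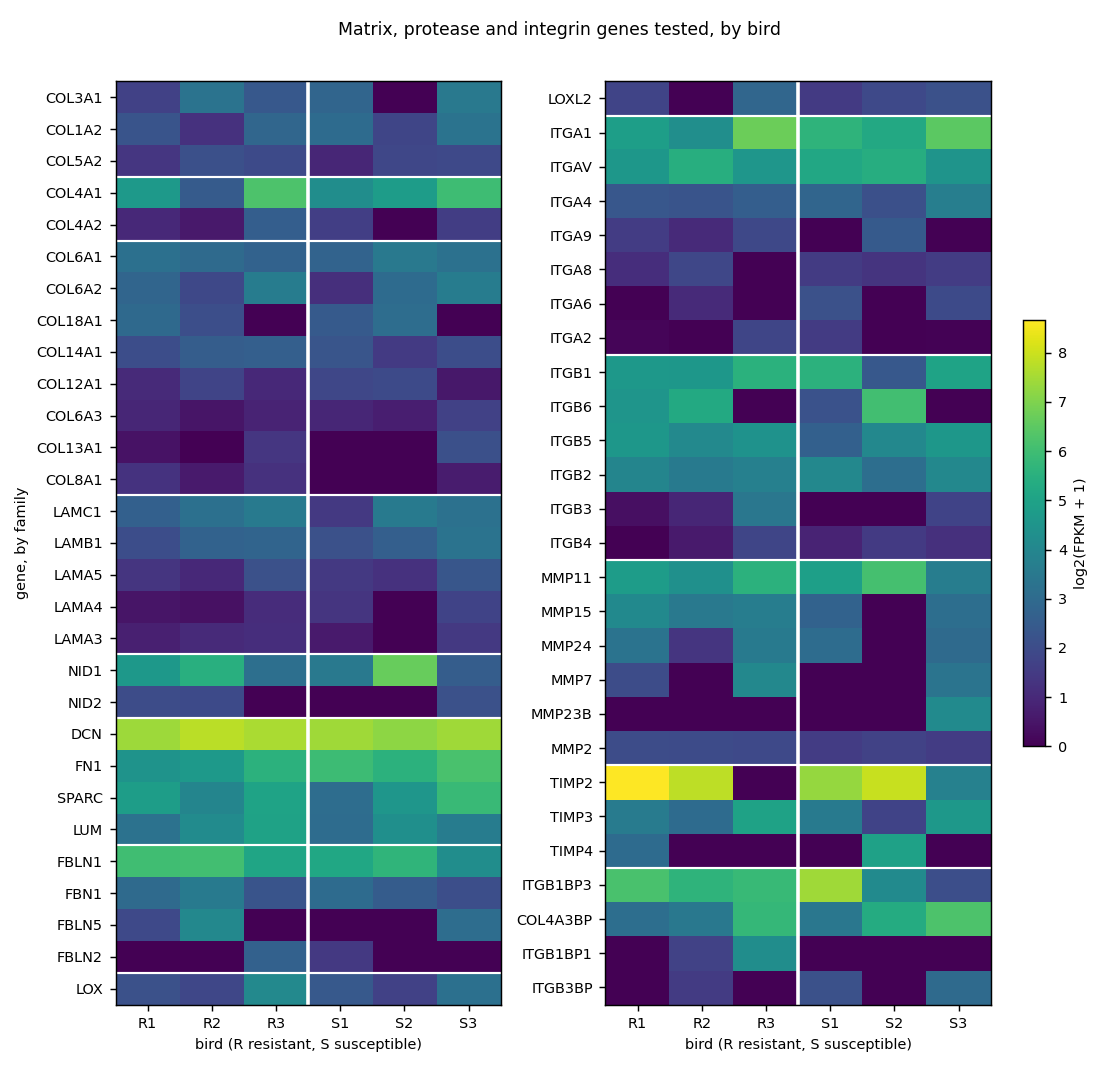
Level of the 56 genes tested in each bird as log2(FPKM + 1), with resistant birds (R1 to R3) left of susceptible birds (S1 to S3) and white lines between families. Decorin (DCN) is high in all 6 birds, whereas TIMP2, NID1, ITGB6 and COL4A1 differ widely between birds of the same group.

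Fibrillar collagens form the load-bearing fibres of connective tissue. Of 7 such genes in the table, 3 were tested, COL11A1 and COL27A1 were listed at 0 in every bird, and COL5A1 and COL24A1 averaged under 0.5 FPKM. COL1A2, a chain of type I collagen, had 3.74, 1.34 and 6.25 FPKM in resistant birds, against 7.13, 2.49 and 8.80 FPKM in susceptible birds. COL3A1, the chain of type III collagen, had 2.20, 8.91 and 4.28 FPKM in resistant birds, against 6.05, 0 and 10.3 FPKM in susceptible birds. The groups overlapped for both genes, and susceptible 3 had the highest value of each. COL3A1 had a log2 fold change of 0.36 (95% interval -1.99 to 2.70), which was 1.09 in the 4 birds with chromosome W fragments and -0.70 without susceptible 2, the bird listed at 0. COL5A2, a type V chain that is built into type I fibres, lay lower, with 1.59, 3.31 and 2.82 FPKM in resistant birds, against 0.927, 2.59 and 2.75 FPKM in susceptible birds. COL5A2 and COL3A1 are neighbours on chromosome 7 of the galGal4 build, 14283 bases apart, yet susceptible 2 had COL5A2 at 2.59 FPKM and COL3A1 at 0.

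Type IV collagen is the network-forming collagen of basement membranes. COL4A1 was the most abundant collagen gene, with 24.9, 4.61 and 75.8 FPKM in resistant birds, against 17.8, 26.9 and 62.6 FPKM in susceptible birds. Resistant 3 and susceptible 3 were the highest, and the highest bird had 16.4 times the level of the lowest, resistant 2. Its log2 fold change was -0.53 (95% interval -2.49 to 1.44), which was -0.93 in the 4 birds with chromosome W fragments and 0.47 without resistant 2. COL4A2, whose protein joins that of COL4A1 in a shared trimer, had 1.00, 0.525 and 4.97 FPKM in resistant birds, against 2.01, 0 and 1.99 FPKM in susceptible birds. The genes lie on chromosome 1, COL4A1 at chr1:138136838-138247249 on galGal4 and COL4A2 at chr1:138247624-138387983, with 374 bases between them. In the same bird the FPKM of COL4A1 was 24.9, 8.79 and 15.3 times that of COL4A2 in resistant birds, against 8.86 and 31.4 times in susceptible 1 and 3. COL4A3 and COL4A5 averaged under 0.5 FPKM, and COL4A4 and COL4A6 were listed at 0 in every bird.

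Of the 24 other collagen genes, 8 were tested and 14 were listed at 0 in all birds, among them the cartilage chains COL9A1, COL9A2, COL9A3 and COL10A1. Type VI collagen, a microfibril that anchors cells in interstitial matrix, led this set. COL6A1 was steady across the birds, with 8.17, 6.94 and 5.60 FPKM in resistant birds, against 5.79, 10.2 and 8.37 FPKM in susceptible birds. The difference in log2 units was -0.19 (95% interval -1.62 to 1.23), and only -0.03 among the 4 birds with W fragments. COL6A2, 20262 bases from it on chromosome 7, varied more, with 6.15, 2.64 and 11.4 FPKM in resistant birds, against 1.23, 7.24 and 11.4 FPKM in susceptible birds. COL6A2 exceeded COL6A1 in resistant 3 and susceptible 3 and lay below it in the other 4 birds. COL6A3, the largest chain, named after its values were seen, was lower than COL6A1 in every bird, at 0.422 to 0.893 FPKM in resistant birds and 0.641 to 2.23 FPKM in susceptible birds. COL18A1, a heparan sulfate collagen of basement membranes that is the source of endostatin, had 6.79, 3.24 and 0 FPKM in resistant birds, against 4.50, 7.58 and 0 FPKM in susceptible birds. The birds listed at 0 were again resistant 3 and susceptible 3. COL14A1, a fibril-associated collagen, had 3.18 to 5.11 FPKM in resistant birds and 1.79 to 3.89 FPKM in susceptible birds. COL8A1, named like COL12A1 and COL14A1 after its values were seen, had 0.539 to 1.41 FPKM in resistant birds and was listed at 0 in 2 susceptible birds, with 0.567 FPKM in the other one. COL12A1 had 0.997 to 2.43 FPKM in resistant birds and 0.479 to 2.84 FPKM in susceptible birds.

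**Figure D2:**
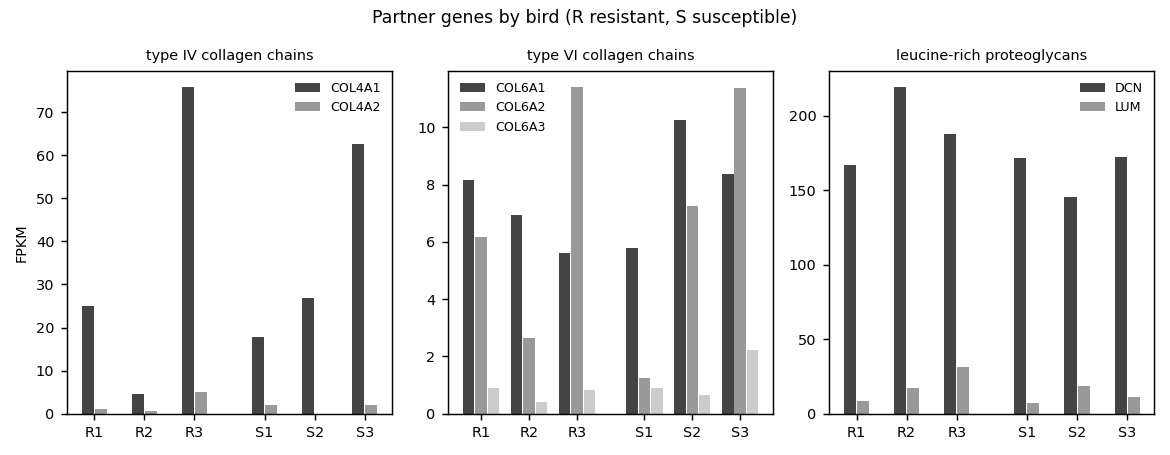
FPKM of genes whose products work together, by bird, with resistant birds (R1 to R3) left of susceptible birds (S1 to S3). COL4A1 exceeds COL4A2 and DCN exceeds LUM in each bird, while the order of COL6A1 and COL6A2 turns in R3 and S3.

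Laminins are the cross-shaped trimers, each of an alpha, a beta and a gamma chain, on which basement membranes assemble. Of these genes, 5 were tested, LAMB4 was listed at 0 in every bird, and LAMA2, LAMB2, LAMB3 and LAMC3 averaged under 0.5 FPKM. LAMC1, the gamma chain shared by most laminins, had 5.27, 8.16 and 10.6 FPKM in resistant birds, against 1.73, 10.7 and 8.35 FPKM in susceptible birds. Resistant over susceptible it stood at a log2 fold change of 0.39 (95% interval -1.36 to 2.13), and 0.42 among the 4 birds with W fragments. Without susceptible 1, the lowest bird, it was -0.26. LAMB1, the commonest beta chain, had 3.12, 5.66 and 5.92 FPKM in resistant birds, against 3.46, 5.19 and 8.85 FPKM in susceptible birds. LAMA5 was the most abundant alpha chain, with 1.52, 0.990 and 3.49 FPKM in resistant birds, against 1.69, 1.37 and 4.00 FPKM in susceptible birds. LAMA5 was highest in resistant 3 and susceptible 3 and nearly level in the other 4 birds. LAMA3 and LAMA4, alpha chains named after their values were seen, were low, at 0.302 to 1.21 FPKM in resistant birds and 0 to 2.33 FPKM in susceptible birds, and each was listed at 0 in susceptible 2.

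Nidogens link laminin to type IV collagen, as does perlecan, whose gene HSPG2 is not analysed here. NID1 was uneven between birds, with 23.9, 43.0 and 8.06 FPKM in resistant birds, against 10.3, 98.9 and 4.87 FPKM in susceptible birds. The highest bird, susceptible 2, had 20.3 times the level of the lowest, susceptible 3, and the log2 fold change between groups was 0.19 (95% interval -2.06 to 2.44). It was -0.02 in the 4 birds with chromosome W fragments, 1.40 without susceptible 2 and -0.64 without susceptible 3. NID2 had 3.09, 2.88 and 0 FPKM in resistant birds, against 0, 0 and 3.43 FPKM in susceptible birds. Susceptible 2 thus had the highest NID1 and a listed 0 for NID2.

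FN1 encodes fibronectin, the adhesive glycoprotein that hepatocytes release into plasma and that cells lay down as fibrils. It had 21.1, 24.8 and 47.1 FPKM in resistant birds, against 60.4, 46.3 and 72.5 FPKM in susceptible birds, which corresponded to 1188, 1598 and 1574 fragments in resistant birds and 2838, 1582 and 3237 in susceptible birds. Resistant 1 and 2 lay below all susceptible birds, while resistant 3 was just above susceptible 2. The means were 31.0 ± 14.1 FPKM in resistant birds and 59.7 ± 13.1 FPKM in susceptible birds (SD, n = 3 each). On log2(FPKM + 1) the log2 fold change was -0.99, with an SE of 0.45, a 95% interval of -1.99 to 0.01 and an adjusted p of 0.984 from limma. Among the 4 birds with chromosome W fragments it came to -1.18, and the adjusted p to 0.368. Leaving out 1 bird at a time gave -1.33 (without resistant 3) to -0.76 (without resistant 1), and over the 17 alternatives to the processing the adjusted p lay between 0.318 and 0.999. FN1 lies on chromosome 7 from 4333468 to 4382817 on galGal4. Under median-ratio scaling and under quantile normalization the 2 groups no longer overlapped for FN1. The log2 fold changes were -0.90 and -0.89, and the adjusted p from limma 0.962 and 0.967. Over all genes tested, 3.37% and 5.5% were lower in resistant birds without overlap in these 2 settings.

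DCN encodes decorin, a small leucine-rich proteoglycan that coats collagen fibrils, and LUM encodes lumican, its relative. DCN was the steadiest of the 30 genes above 0 in every bird, with 167, 219 and 188 FPKM in resistant birds, against 172, 145 and 172 FPKM in susceptible birds. It averaged 191 ± 26.4 FPKM in resistant birds and 163 ± 15.3 FPKM in susceptible birds (SD, n = 3 each), and the highest bird had 1.51 times the level of the lowest. Expressed in log2 units the difference was 0.22 (95% interval -0.52 to 0.97), and 0.27 among the 4 birds with W fragments. This interval was the narrowest of the 56, and its bounds lie within 1 log2 unit on either side of 0. LUM, 21228 bases from DCN on chromosome 1, had 8.74, 17.1 and 31.1 FPKM in resistant birds, against 7.45, 18.9 and 11.5 FPKM in susceptible birds. DCN was 6.04 to 19.1 times LUM in resistant birds and 7.72 to 23.1 times LUM in susceptible birds. SPARC, a collagen-binding glycoprotein of remodelling tissue, had 27.1, 14.3 and 31.8 FPKM in resistant birds, against 7.61, 22.6 and 58.3 FPKM in susceptible birds. SPARCL1 was listed at 0 in every bird.

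Fibrillins and fibulins build and organise elastic microfibrils, and lysyl oxidases cross-link collagen and elastin. FBLN1 had 63.5, 64.8 and 33.6 FPKM in resistant birds, against 35.0, 50.2 and 17.8 FPKM in susceptible birds. Resistant 1 and 2 were above all susceptible birds, and resistant 3 lay between susceptible 3 and susceptible 1. FBLN1 thus had a log2 fold change of 0.69 (95% interval -0.43 to 1.81), and of 0.60 among birds with W fragments. FBN1, fibrillin-1, had 6.96, 10.8 and 3.79 FPKM in resistant birds, against 7.21, 4.81 and 3.20 FPKM in susceptible birds. FBLN5 had 2.76, 15.4 and 0 FPKM in resistant birds, against 0, 0 and 7.55 FPKM in susceptible birds. FBLN2 had 0, 0 and 5.51 FPKM in resistant birds, against 1.72, 0 and 0 FPKM in susceptible birds. All 4 had a log2 fold change above 0, also under median-ratio scaling and quantile normalization, but FBLN5 and FBLN2 rest on birds listed at 0, and did not keep that direction throughout, FBLN5 without resistant 2 and FBLN2 without resistant 3. LOX had 3.40, 2.62 and 16.1 FPKM in resistant birds, against 4.34, 2.19 and 8.15 FPKM in susceptible birds, and lies on chromosome Z, of which male birds carry a pair and females a single copy. LOX had a log2 fold change of 0.27 (95% interval -1.69 to 2.23), which turned to -0.05 in the 4 birds with chromosome W fragments, to -0.13 under quantile normalization and to -0.43 without resistant 3. LOXL2 had 2.46, 0 and 6.20 FPKM in resistant birds, against 1.79, 2.81 and 3.41 FPKM in susceptible birds. FBN2, FBN3 and LOXL4 were listed at 0 in every bird.

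**Figure D3:**
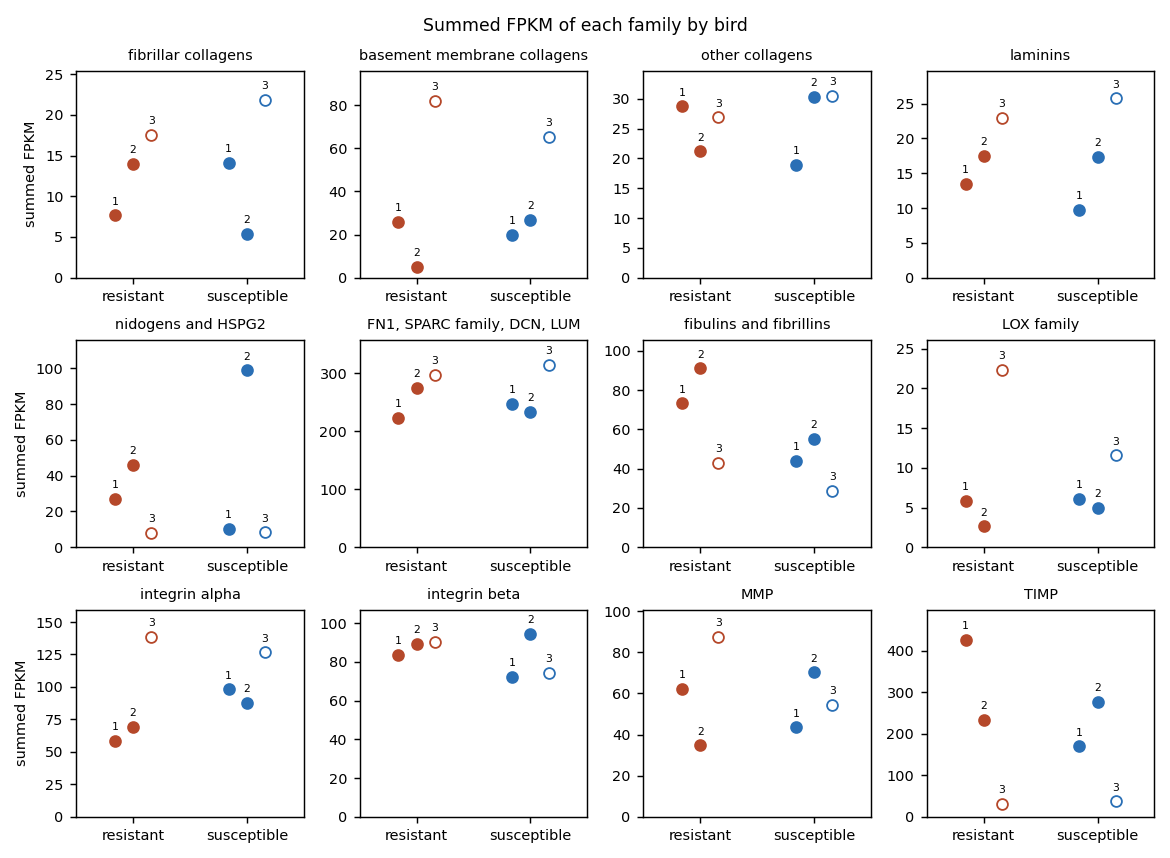
Summed FPKM of all genes of a family in each bird, resistant birds left of susceptible birds in each panel, with the bird's number above its point. Open points are resistant 3 and susceptible 3, the birds with no fragment on chromosome W genes, which lie highest for fibrillar and basement membrane collagens, laminins, the panel of FN1, SPARC, DCN and LUM, LOX genes and integrin alpha chains and lowest for fibulins and fibrillins, nidogens and TIMP genes.

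Integrin alpha chains set which matrix protein a receptor binds. ITGA1, the alpha chain of the collagen and laminin receptor that pairs with ITGB1, was the most abundant of the 7 tested, with 28.0, 18.3 and 105 FPKM in resistant birds, against 48.9, 37.0 and 88.1 FPKM in susceptible birds. Resistant 3 and susceptible 3 were highest. ITGA1 is on chromosome Z, and its log2 fold change was -0.50 (95% interval -1.94 to 0.94). In the 4 birds with chromosome W fragments it was -0.88, and both resistant ones lay below both susceptible ones. There 15.9% of all genes tested were lower in this way and 16.8% higher. Without resistant 2, the log2 fold change of ITGA1 was 0.01. ITGA2, its neighbour 13763 bases away and a related collagen receptor chain, was at 2.49 FPKM or less in resistant birds and 1.86 FPKM or less in susceptible birds. ITGAV, the alpha chain of receptors for fibronectin and vitronectin, had 23.2, 42.6 and 22.8 FPKM in resistant birds, against 36.0, 41.5 and 21.6 FPKM in susceptible birds. ITGA4, the alpha chain of a receptor on leukocytes, had 4.12, 3.80 and 5.04 FPKM in resistant birds, against 6.13, 3.33 and 12.2 FPKM in susceptible birds. ITGA6, ITGA8 and ITGA9, named after their values were seen, lay between 0 and 2.70 FPKM in resistant birds and between 0 and 4.44 FPKM in susceptible birds. Of the 7 alpha chains, 2 had a log2 fold change above 0 and 5 below 0, with a median of -0.45, which was -0.16 without susceptible 3 and -0.29 without resistant 1, and under quantile normalization all 7 were below 0. By the limma test 0 passed.

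Integrin beta chains carry the link to the cytoskeleton. ITGB1, the partner of most alpha chains, had 23.8, 23.3 and 45.1 FPKM in resistant birds, against 47.0, 4.19 and 31.9 FPKM in susceptible birds. Susceptible 2 stood far below the others, with 65 fragments where the other birds had 578 to 956. ITGB1 had a log2 fold change of 0.59 (95% interval -1.17 to 2.35) and 0.64 in the 4 birds with W fragments, and without susceptible 2 it was -0.39. ITGB6, the epithelial partner of ITGAV, had 21.8, 37.7 and 0 FPKM in resistant birds, against 3.59, 65.1 and 0 FPKM in susceptible birds. The 2 birds listed at 0 were resistant 3 and susceptible 3, and susceptible 2 was the highest, as for NID1. ITGB5, a further partner of ITGAV, had 23.3, 16.0 and 20.3 FPKM in resistant birds, against 5.37, 15.5 and 23.1 FPKM in susceptible birds. ITGB2, the chain shared by leukocyte integrins and named after its values were seen, was even across birds, at 10.9 to 14.5 FPKM in resistant birds and 7.80 to 15.5 FPKM in susceptible birds. ITGB3, the beta chain of the thrombocyte fibrinogen receptor, is outside the rule for named genes too, and had 0.266, 0.891 and 9.80 FPKM in resistant birds, against 0, 0 and 2.34 FPKM in susceptible birds. Of the 6 beta chains tested, 5 had a log2 fold change above 0, with a median of 0.55, and 0 passed the test. Without susceptible 2, 3 were above 0 and 3 below with a median of 0.24, and the median was 0.17 without resistant 3, 0.21 without susceptible 1 and 0.26 without resistant 1. ITGB8 was listed at 0 in every bird.

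**Figure D4:**
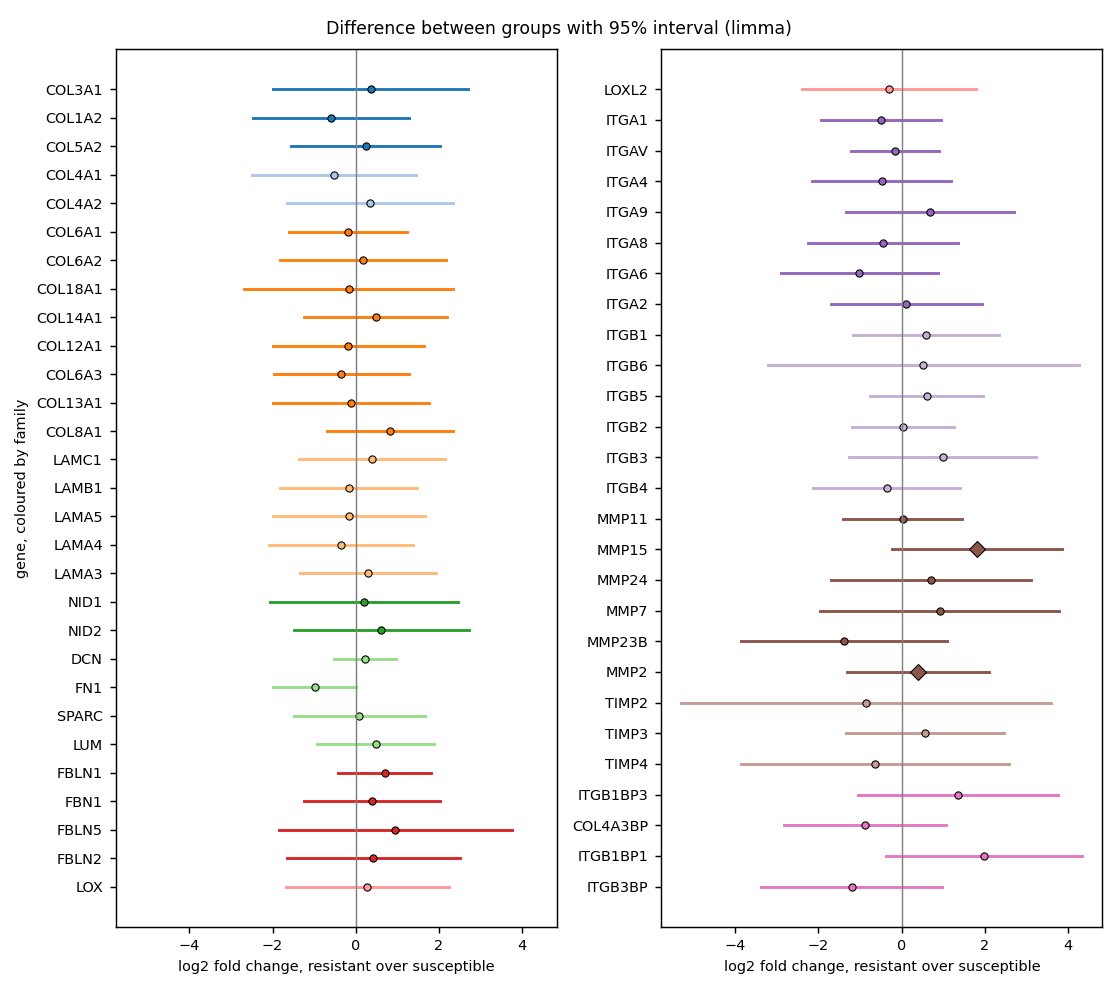
Log2 fold change, resistant over susceptible, of each gene tested on the log2(FPKM + 1) scale, with its 95% interval from limma and colours by family. Diamonds mark MMP15 and MMP2, in which the 2 groups did not overlap. Every interval spans 0, and that of FN1 ends at 0.01.

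Metalloproteinases held the 2 genes without overlap, which are 3.57% of the 56 tested, against 8.41% of all genes tested. MMP15, a membrane-type enzyme, had 16.3, 10.3 and 11.8 FPKM in resistant birds, against 5.61, 0 and 7.76 FPKM in susceptible birds, read from 222, 161 and 95 fragments in resistant birds and 64, 0 and 88 in susceptible birds. It lies on chromosome 11 from 440514 to 443681 on galGal4. On the log2 scale the difference was 1.81, with an SE of 0.91, a 95% interval of -0.23 to 3.85 and an adjusted p of 0.984 from limma. Without susceptible 2, which was listed at 0, it was 0.83, and it was 2.44 where only birds with W fragments were used. MMP2, gelatinase A, which cuts denatured and type IV collagen, had 3.06, 2.96 and 2.78 FPKM in resistant birds, against 1.88, 2.25 and 1.89 FPKM in susceptible birds. It averaged 2.93 ± 0.142 FPKM in resistant birds and 2.01 ± 0.207 FPKM in susceptible birds (SD, n = 3 each). On log2(FPKM + 1), a scale that understates the change of low genes, the log2 fold change was 0.39 (95% interval -1.32 to 2.10). The adjusted p from limma was 0.995. In the 4 birds with chromosome W fragments the log2 fold change was also 0.39. Under quantile normalization the log2 fold change of MMP2 was 0.04 and the groups overlapped. The values rest on 70 to 144 fragments in resistant birds and 61 to 67 in susceptible birds.

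MMP11, stromelysin-3, had a pair of rows 625 bases apart on chromosome 15. One of them was listed at 0 FPKM and 0 fragments in every bird, so the listed values show no split of reads between them. The other row was the most abundant metalloproteinase, with 26.99, 19.6 and 46.4 FPKM in resistant birds, against 28.5, 68.0 and 11.8 FPKM in susceptible birds. MMP11 had a log2 fold change of 0.02 (95% interval -1.42 to 1.46), which was -0.91 in the 4 birds with W fragments, -0.58 without susceptible 3 and 0.63 without susceptible 2. MMP24, a membrane-type enzyme, had 8.79, 1.53 and 10.8 FPKM in resistant birds, against 7.42, 0 and 7.06 FPKM in susceptible birds. MMP7, matrilysin, which was named once its values were seen, had 3.06, 0 and 15.6 FPKM in resistant birds, against 0, 0 and 9.13 FPKM in susceptible birds. Its neighbours on chromosome 1, the collagenase MMP13 and the enzymes MMP10 and MMP27, were listed at 0 in all 6 birds. MMP23B and MMP9, named in the same way, were each above 0 in a single bird. MMP23B was above 0 in susceptible 3 alone, at 16.8 FPKM, and MMP9, gelatinase B of leukocytes, in resistant 2 alone, at 0.055 FPKM.

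TIMP2, the inhibitor that also helps to activate the MMP2 protein, had 407, 226 and 0 FPKM in resistant birds, against 158, 244 and 13.1 FPKM in susceptible birds. It was the highest of the 103 genes in resistant 1, resistant 2 and susceptible 2, held 36.5% of their summed FPKM in resistant 1, and was listed at 0 in resistant 3. Resistant over susceptible, TIMP2 was at -0.86 on the log2 scale, with a 95% interval of -5.29 to 3.58, and turned to 0.62 in the 4 birds with W fragments and to 1.89 without resistant 3. TIMP3, the inhibitor that stays bound to the matrix, had 11.2, 7.13 and 31.0 FPKM in resistant birds, against 10.9, 2.35 and 23.6 FPKM in susceptible birds. TIMP2 was thus lowest, and TIMP3 highest, in resistant 3 and susceptible 3. TIMP4 had 7.14, 0 and 0 FPKM in resistant birds, against 0, 29.9 and 0 FPKM in susceptible birds.

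The name rule also took 7 genes that are not matrix or integrin genes, of which 4 were tested. COL4A3BP, a ceramide transfer protein on chromosome Z, had 7.71, 9.99 and 54.1 FPKM in resistant birds, against 9.78, 39.3 and 74.7 FPKM in susceptible birds. ITGB1BP3, a nicotinamide riboside kinase in mammals, had 71.6, 49.4 and 56.9 FPKM in resistant birds, against 171, 16.6 and 3.25 FPKM in susceptible birds. ITGB1BP1, a cytoplasmic binding partner of the ITGB1 chain in mammals, had 0, 2.27 and 17.8 FPKM in resistant birds and was listed at 0 in all 3 susceptible birds. ITGB3BP, a centromere protein, had 0, 1.87 and 0 FPKM in resistant birds, against 3.43, 0 and 6.92 FPKM in susceptible birds. ITGB1BP2, ITGBL1 and LOXHD1 were listed at 0 in every bird.

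Values spread widely within each group, and one arrangement recurred, with resistant 3 and susceptible 3 standing together. Both lay above the 4 other birds for 14 of the 56 genes tested and below them for 8, which is 39.3% of the 56, against 19.9% of all genes tested (13.3% above and 6.6% below). The arrangement was not particular to these families. Of 48 tested markers of liver cell types, described below, both birds lay above for 17 and below for 2. The 14 included the basement membrane genes COL4A1, LAMA3, LAMA5 and LAMB1, the cross-linking enzymes LOX and LOXL2, ITGA1, ITGB3, SPARC, TIMP3 and MMP7. The 8 were NID1 and COL18A1, which are basement membrane genes too, and TIMP2, ITGB6, ITGAV, FBLN1, FBN1 and COL12A1. The basement membrane genes COL4A2, LAMC1, LAMA4 and NID2 were in neither set. The counts go by rank alone, and some gaps were small. ITGAV had 22.8 FPKM in resistant 3 and 23.2 FPKM in resistant 1, and LAMB1 had 5.92 FPKM in resistant 3 and 5.66 FPKM in resistant 2. Values listed at 0 entered these counts as the lowest. COL18A1 and ITGB6 were listed at 0 in both resistant 3 and susceptible 3, and TIMP2 in resistant 3. Some of the 14, such as MMP7 and ITGB3, were listed at 0 in some of the other birds. No test was made of this arrangement, which was noticed in these values, and the genes share the same 6 libraries. Of the 22 genes, 3 are on chromosome Z: ITGA1, LOX and COL4A3BP. Leaving out chromosomes Z and W, 11 of 52 genes lay above and 8 below, against 12.4% and 6.73% of all genes tested. With median-ratio scaling, 12 of the 56 lay above and 8 below, against 9.74% and 8.7% of all genes tested. Both of these alternatives were chosen after the data had been seen. The median deviation of the 56 genes from their 6-bird mean was taken in log2 units, without median-ratio scaling. It was -0.08, -0.05 and 0.39 in resistant 1 to 3, against -0.14, -0.28 and 0.38 in susceptible 1 to 3. No such value over all genes was set beside it. The median-ratio factor, by which that scaling divides, was highest in resistant 3, lowest in resistant 2 and nearly equal in susceptible 1 and 3. A rise particular to the 56 genes therefore cannot be read from these deviations.

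**Figure D5:**
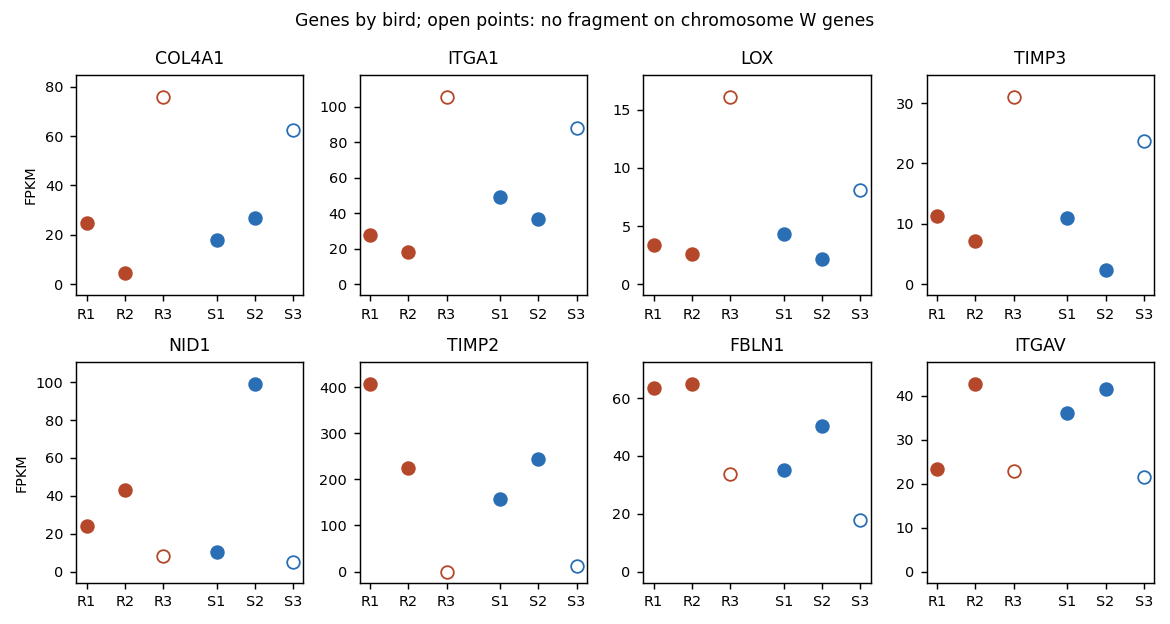
FPKM of 8 genes in each bird, resistant birds (R1 to R3) left of susceptible birds (S1 to S3). The genes were chosen from those in which R3 and S3 both rank above or both rank below the other birds, by however small a gap. Open points are R3 and S3, the birds with no fragment on chromosome W genes, which are highest in the upper row and lowest in the lower row.

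Summed markers of endothelial cells, of macrophages and of leukocytes and thrombocytes were high in resistant 3 and susceptible 3, while single markers differed. The summed FPKM of 12 endothelial markers, all of them tested, was 131, 193 and 341 in resistant birds, against 184, 118 and 219 in susceptible birds. That of 7 macrophage markers was 376, 360 and 558 in resistant birds, against 256, 142 and 514 in susceptible birds. Both sums were highest within their group in resistant 3 and susceptible 3, and lowest in susceptible 2. By single gene, both birds lay above the 4 others for 4 of the 12 endothelial and 4 of the 7 macrophage markers. They lay below for 0 of either list. CDH5 was higher in susceptible 1 (88.7 FPKM) than in susceptible 3 (64.0 FPKM), and ERG was lowest in susceptible 3. CLDN5 was above 0 in susceptible 3 alone, at 25.1 FPKM, and EGFL7 only in resistant 1 and 2. The 8 stellate cell and fibroblast markers summed to 23.4, 48.6 and 47.6 in resistant birds, against 35.6, 32.5 and 62.3 in susceptible birds, of which PDGFRA and NGFR were too low to test. The 6 tested had 3 log2 fold changes above 0 and 3 below 0, with a median of 0.10. The stellate marker LRAT, which makes retinyl esters, had 2.03, 2.88 and 6.34 FPKM in resistant birds and was listed at 0 in all 3 susceptible birds, with an unadjusted p of 0.018 and an adjusted p of 0.984 from limma. TIMD4, a receptor of resident macrophages, had 77.7, 77.6 and 72.4 FPKM in resistant birds, against 36.1, 42.0 and 69.1 FPKM in susceptible birds. STAB2, a scavenger receptor of sinusoidal endothelium, had 6.05, 13.1 and 6.71 FPKM in resistant birds, against 4.95, 2.00 and 5.29 FPKM in susceptible birds. CD8A, a T cell marker, had 0.706, 0.621 and 5.78 FPKM in resistant birds and was listed at 0 in all 3 susceptible birds. RBP4, the retinol carrier made by hepatocytes, had 3642, 2931 and 3780 FPKM in resistant birds, against 2419, 2815 and 2849 FPKM in susceptible birds. These 5 of the 48 markers tested showed no overlap between the groups, where 8.41% of all genes tested had none, and each was higher in resistant birds (4.44% of all genes tested). The 10 leukocyte and thrombocyte markers summed to 114, 91.4 and 202 in resistant birds, against 107, 90.9 and 204 in susceptible birds. Here too resistant 3 and susceptible 3 were highest. The 5 bile duct markers summed to 52.7 to 53.1 in resistant birds and 70.8 to 111 in susceptible birds. Those sums did not overlap, but taken singly 0 of the 5 markers lacked overlap. Of the 5, 1 had a log2 fold change above 0 and 4 below 0. CDH1 had 22.1, 17.8 and 30.5 FPKM in resistant birds, against 75.2, 20.7 and 59.9 FPKM in susceptible birds. The 5 red cell markers were low, at 0 to 11.2 in resistant birds and 9.43 to 26.7 in susceptible birds, and the globin genes HBG1 and HBE were listed at 0 in every bird. Of the 10 hepatocyte markers, 4 were higher in resistant 3 and susceptible 3 than in the 4 other birds, the fibrinogen genes FGA, FGB and FGG and SERPINC1, and 1, AHSG, was lower. Over all genes tested, 13.3% were higher and 6.6% lower in this way. Of tested leukocyte and thrombocyte markers 3 of 6 were higher, and of stellate cell and fibroblast markers 2 of 6. Of the 5 bile duct markers 0 were higher and 1 was lower. FGB had 2133, 1699 and 5606 FPKM in resistant birds, against 2980, 2014 and 6489 FPKM in susceptible birds. AHSG, fetuin-A, had 2212, 2465 and 628 FPKM in resistant birds, against 2016, 2359 and 1107 FPKM in susceptible birds. The part of cell make-up, of hepatocyte state and of sex chromosomes in the differences between birds was not tested.

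Genes that make and process collagen, from a list of the pathway, likewise gave 0 of 18 tested past the limma threshold in either direction, with 5 log2 fold changes above 0, 13 below 0 and a median of -0.34. The median depended on single birds, and was -0.13 without susceptible 1 and -0.16 without resistant 3, with 8 above 0 and 10 below 0 in each case. PPIB, the peptidyl-prolyl isomerase that helps fold procollagen, had 131, 59.8 and 55.1 FPKM in resistant birds, against 114, 164 and 113 FPKM in susceptible birds. FKBP10, a further isomerase of collagen folding, had 2.44, 0.749 and 4.05 FPKM in resistant birds, against 0.460, 0 and 0.103 FPKM in susceptible birds. ADAMTS2, which trims the amino end of procollagen, had 1.54, 2.40 and 0.375 FPKM in resistant birds, against 0, 0 and 0.089 FPKM in susceptible birds. FKBP10 and ADAMTS2 did not overlap between groups, each with higher values in resistant birds and levels near 0 in susceptible birds. In the other direction the groups did not overlap for 2 genes named after their values were seen, SEC23A and SEC24D, coat proteins of the vesicles that carry procollagen out of the endoplasmic reticulum. Over all genes tested, 4.44% had no overlap with higher values and 3.98% with lower values in resistant birds. SEC23A had 52.8, 54.5 and 41.4 FPKM in resistant birds, against 55.8, 90.0 and 58.8 FPKM in susceptible birds. SEC24D had 24.4, 27.01 and 20.9 FPKM in resistant birds, against 31.7, 29.4 and 32.1 FPKM in susceptible birds.

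Of 27 other matrix genes in the table, 11 were tested and 11 were listed at 0 in all birds, and 0 passed the test, with 4 log2 fold changes above 0 and 7 below 0 and a median of -0.16. That direction turned when 1 bird was left out, with a median of 0.25 without susceptible 3 (7 above and 4 below) and 0.12 without resistant 1 (6 above and 5 below), and with 0.10 in the 4 birds with W fragments. VTN, vitronectin, a plasma adhesion protein of hepatocytes bound by ITGAV receptors, had 1348, 1055 and 1313 FPKM in resistant birds, against 1871, 1694 and 1858 FPKM in susceptible birds. All 3 resistant birds lay below all susceptible birds, with a log2 fold change of -0.55 (SE 0.37), -0.58 in the 4 birds with W fragments, and an adjusted p of 0.984 from limma. EFEMP1, a fibulin-like glycoprotein, had 0, 1.36 and 4.56 FPKM in resistant birds, and THBS2, thrombospondin-2, had 0, 1.35 and 2.67 FPKM in resistant birds. Both were listed at 0 in all susceptible birds.

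Adaptors that tie integrins to actin gave 0 of 26 past the test, with 14 log2 fold changes above 0, 12 below 0 and a median of 0.07, which turned to -0.14 under quantile normalization, to -0.22 without resistant 3 and to -0.13 without susceptible 1. FERMT1, a kindlin that activates integrins, had 22.3, 21.3 and 43.3 FPKM in resistant birds, against 24.2, 5.81 and 15.3 FPKM in susceptible birds. ACTN1, alpha-actinin-1, had 12.9, 10.2 and 12.5 FPKM in resistant birds, against 11.2, 32.3 and 30.5 FPKM in susceptible birds. RSU1, a partner of the integrin-linked kinase complex, had 70.9, 64.1 and 37.5 FPKM in resistant birds, against 128, 115 and 45.1 FPKM in susceptible birds. The groups overlapped for all 3 genes.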

How the data were processed

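FPKM values per gene and bird were made by the authors, as the file headers name them. The submitters' processing notes list cutadapt 1.9.3, HISAT2 2.0.4, Cufflinks, Cuffdiff and the galGal4 build, with no role for each tool. A second set of columns, headed counts per the file headers, is not whole numbers. It was read as a deposited signal of fragments divided by a size factor per bird: above 0.1, between 99.5% and 99.7% of values in each bird fell on a multiple of the smallest step, to within 0.02 of it. A few values per bird lay far below 1 step, so no count model was run. Dividing by the step gave fragments. Columns of other samples numbered 0.

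The test used log2(FPKM + 1) of genes averaging 0.5 FPKM or more. It was run in limma 3.58.1 under R 4.3.3 with lmFit and a trended eBayes, resistant minus susceptible, 2-sided, with Benjamini-Hochberg adjustment over all genes tested at 0.05. The scale understates the change of low genes. Sums and counts were made in Python 3.11.15, figures with matplotlib 3.10.9. Starts were raised by 1 to count from 1. No 2 birds of a group looked like one library: the smallest chi-square of their fragments over genes, per degree of freedom, was 144.

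The genes, gene lists and tests were chosen with earlier results of these data known. Named were the 3 most abundant tested genes per family, all tested genes of families with 4 or fewer, those with no overlap between groups or an unadjusted p under 0.05, and the 3 with the smallest p of each further list. Fold changes are given for the most abundant gene of each family, FN1, MMP15 and MMP2, and in part for others. Alternatives were another pseudocount, other filters, 2 scalings, the signal in place of FPKM, 0s as missing, a replicate block, leaving out each bird, leaving out chromosomes Z and W, and the 4 birds with chromosome W fragments. Some results on single genes are not reported here.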

Additional observations from a re-analysis of the deposited data

How the results depend on the processing

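In this section, matrix genes is short for all tested genes that the name rule took. Integrins, proteases and the 4 tested genes that are not matrix or integrin genes are thus included. At an adjusted p under 0.05, limma counted 0 of all genes and 0 of the matrix genes under each of the 17 alternatives. The lowest adjusted p from limma was 0.189 for any gene and 0.272 for a matrix gene. The median log2 fold change of the matrix genes moved by less than 1 SD of the spread between birds (0.31). That bar is wider than the median itself, 0.18, so a change of sign can stay within it. The median was -0.05 under quantile normalization and -0.01 with 0s as missing. Leaving out 1 bird gave -0.0069 (without resistant 3) to 0.17 (without susceptible 3). Matrix genes with all resistant birds above all susceptible birds numbered 2 in the report, 1 with a filter of 5 FPKM, 4 with median-ratio scaling, 1 with 0s as missing, 9 with birds that had W fragments, and 3 to 6 when a bird was left out. Those below numbered 0 in the report, 1 with median-ratio scaling, 2 under quantile normalization, 5 in the 4 birds, and 0 to 8 when a bird was left out (8 without susceptible 2). With 0s as missing, a gene with a missing bird could not be counted in either direction. MMP15, listed at 0 in susceptible 2, dropped out there by construction. Fewer birds make such separation more frequent by construction: in the 4 birds 16.8% of all genes were higher and 15.9% lower. The 6 of 56 matrix genes higher without resistant 1 stood beside 6.78% of all genes, and the 6 without susceptible 3 beside 9.87%. The 8 of 56 lower without susceptible 2 stood beside 11.8% of all genes. With all 6 birds, 5.45% of all genes were higher and 3.37% lower under median-ratio scaling. Under quantile normalization these shares were 3.92% and 5.5%.

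Of 252 log2 fold changes of the 15 genes followed, 231 kept their direction and 21 turned, and the cause of the turns was not tested. Many of the 231 were fixed by construction. The filters, the replicate block and leaving out chromosomes Z and W cannot change a log2 fold change. Treating 0s as missing can change only that of genes listed at 0 in some bird. LOX turned to -0.13 under quantile normalization and to -0.047 in the 4 birds with chromosome W fragments. There MMP11 was -0.91, TIMP2 0.62 and NID1 -0.022. With 0s as missing TIMP2 was 1.89 and COL3A1 -0.70, because the birds listed at 0 dropped out. Leaving out single birds gave ranges that crossed 0 for 9 genes: -1.42 to 0.47 for COL4A1, -0.70 to 1.05 for COL3A1, -0.26 to 0.79 for LAMC1, -0.64 to 1.40 for NID1, -0.43 to 0.69 for LOX, -1.22 to 0.0069 for ITGA1, -0.39 to 1.21 for ITGB1, -0.58 to 0.63 for MMP11 and -2.44 to 1.89 for TIMP2. The 6 others, FN1, MMP15, MMP2, DCN, FBLN1 and COL6A1, kept their direction in every alternative run.

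No pairing by bird number was used: same-numbered birds of the 2 groups correlated at 0.01, 0.04 and 0.17 in their deviations, and resistant 1 was closer to susceptible 2 (0.12). With the bird number as a replicate block, 0 genes passed and the median stayed 0.18. FN1 had an unadjusted p under 0.05 from limma there (0.046), with pseudocount 0.1 (0.045), no filter (0.045) and the signal (0.037). So it did without resistant 3 (0.0075), without susceptible 2 (0.043) and in the 4 birds (0.017). In the other alternatives that p lay between 0.051 (without chromosomes Z and W) and 0.126 (without resistant 1). Of all 9626 genes, 274 were higher and 184 lower at that threshold with the block, and 392 and 212 without resistant 3. The adjusted p of FN1 was 0.318 at the lowest. The planned count model was not run. Low genes rest on few fragments, and 30 of the 103 genes were above 0 in every bird. The part of depth in the values listed at 0 was not tested.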
